A study of Mus musculus with 6 samples.

Results

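The 45 genes described here encode the proton pump, membrane proteins and enzymes of the lysosome, with the regulators that control them, among 31053 measured features of mouse colon tumours. They were picked by symbol, each matched exactly 1 feature, and differences between neutrophils of the 2 tumour models were among the values that led to the choice. The neutrophil differences are therefore a description: levels, fold changes and overlap between libraries are given, and calls of members by a test there are not. The members comprise 6 subunits of the V0 sector of the vacuolar proton pump (V-ATPase), 8 subunits of its V1 sector, 2 accessory subunits, 8 lysosomal membrane proteins, 14 lumenal enzymes and activators, and 7 regulators of lysosomes and autophagy.

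Tumours of 2 models in male mice were compared, with 3 droplet-based single-cell libraries each. AOM PN mice carried VilcreER, p53 fl/fl and a Notch1 transgene. They received 2 mg of tamoxifen by intraperitoneal injection and, beginning 4 days later, 10 mg/kg of the carcinogen azoxymethane (AOM) weekly for 6 weeks. Apc ICI mice carried VilCreER and Apc fl/fl, and 4-OH tamoxifen (70 µl at 100 µM) was injected once into the submucosa of the colon. Villin-driven Cre acts in intestinal epithelium, so the neutrophils, macrophages and dendritic cells were not themselves the target of recombination. Animals of both models were culled at a clinical endpoint; the sources used here give neither ages nor the time since induction. Alleles, carcinogen, route of induction and any batch common to a model's libraries cannot be told apart. The labels do not say whether the 3 libraries of a model came from separate animals, so a p-value reflects only how far these samples spread, which may be technical.

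Lysosomes are acidic organelles that break down proteins, lipids, sugars and nucleic acids delivered by endocytosis, phagocytosis and autophagy. The V-ATPase acidifies them: its V1 sector hydrolyses ATP in the cytosol, and its V0 sector carries protons across the membrane. Many lysosomal genes are targets of the transcription factors TFEB, TFE3 and MITF, which bind E-box motifs around CACGTG in their promoters and are held in the cytosol by mTORC1 when nutrients are plentiful. In phagocytes such as macrophages and neutrophils, lysosomes also digest engulfed cells and microbes.

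Promoters show this motif among the members. RefSeq promoter windows (GRCm38.p6, 250 bases before to 50 after the start) were found for 38 of the 45 genes. CACGTG, which reads the same on both strands, occurred in 10 of these 38 genes (26.3%), against 8.09% of all 27025 genes in the table. The longer TCACGTGA, which contains it, occurred in 5 of 38 (13.2%), against 1.12% of all genes, in Atp6v0d1, Atp6v0e, Atp6v1a, Gla and Mcoln1. TCATGTGA, a variant core searched on both strands, occurred in 4 of 38 (10.5%), in Atp6v0c, Gla, Ppt1 and Tpp1, against 1.15% of all genes. A match is a description of the letters, not of binding. The 250 bases before the start are printed for 5 members that hold the motif and for Gpnmb, which held none of these motifs and had the most negative fold change in neutrophils. Capitals mark CACGTG, drawn out to TCACGTGA where those letters stand, and in Gla also TCATGTGA.
Lamp1: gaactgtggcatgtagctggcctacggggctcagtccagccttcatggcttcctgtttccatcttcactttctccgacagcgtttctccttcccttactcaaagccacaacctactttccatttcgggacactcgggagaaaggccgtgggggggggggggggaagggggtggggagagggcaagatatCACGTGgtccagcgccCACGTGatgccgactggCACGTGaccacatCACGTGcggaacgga
Mcoln1: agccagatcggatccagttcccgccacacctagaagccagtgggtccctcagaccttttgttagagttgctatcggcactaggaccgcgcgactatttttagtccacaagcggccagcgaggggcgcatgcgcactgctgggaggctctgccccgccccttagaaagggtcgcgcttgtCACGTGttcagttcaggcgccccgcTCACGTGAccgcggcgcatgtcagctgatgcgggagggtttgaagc
Naglu: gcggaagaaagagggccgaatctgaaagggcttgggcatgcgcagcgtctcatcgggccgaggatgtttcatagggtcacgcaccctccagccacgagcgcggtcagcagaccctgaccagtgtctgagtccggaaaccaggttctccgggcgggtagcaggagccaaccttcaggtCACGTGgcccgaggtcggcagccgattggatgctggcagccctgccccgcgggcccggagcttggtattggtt
Atp6v1a: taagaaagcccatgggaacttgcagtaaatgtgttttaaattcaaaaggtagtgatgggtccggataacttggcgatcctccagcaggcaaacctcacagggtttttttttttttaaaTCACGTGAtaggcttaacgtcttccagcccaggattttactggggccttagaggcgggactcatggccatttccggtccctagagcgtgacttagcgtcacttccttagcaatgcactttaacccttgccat
Gla: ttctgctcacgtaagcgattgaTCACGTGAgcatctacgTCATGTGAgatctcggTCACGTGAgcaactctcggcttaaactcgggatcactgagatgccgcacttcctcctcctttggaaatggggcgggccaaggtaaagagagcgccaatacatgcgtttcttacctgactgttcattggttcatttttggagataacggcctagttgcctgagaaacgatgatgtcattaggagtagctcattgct
Gpnmb: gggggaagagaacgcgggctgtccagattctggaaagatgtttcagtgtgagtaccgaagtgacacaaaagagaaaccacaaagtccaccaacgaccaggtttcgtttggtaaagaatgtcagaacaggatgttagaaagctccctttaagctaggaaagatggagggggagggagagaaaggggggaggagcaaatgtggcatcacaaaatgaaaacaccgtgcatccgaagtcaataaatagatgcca
These windows lie at chr8:13158911-13159160 (plus strand) for Lamp1, chr8:3500269-3500518 (plus) for Mcoln1, chr11:101069844-101070093 (plus) for Naglu, chr16:44139260-44139509 (minus) for Atp6v1a, chrX:134601006-134601255 (minus) for Gla and chr6:49036268-49036517 (plus) for Gpnmb. In Lamp1 the motif stood 4 times near the end next to the start site. Gpnmb and Psap, in which CACGTG was not found, and Lamp1, in which it was, all had lower levels in AOM PN neutrophils, as given next.

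The libraries held 87107277, 88426376 and 98583066 unique molecular identifiers (UMIs) in AOM PN and 59403877, 59309093 and 60075436 in Apc ICI. Haemoglobin took 1.87% to 29.0% of them in AOM PN and 21.4% to 61.4% in Apc ICI, and was left out of all sums. Between 4 and 27 cell barcodes were shared by any pair of libraries. Of 46062 cells kept, 16381 were neutrophil-like, 8782 monocyte/macrophage-like, 1550 dendritic-like and 4220 epithelial-like, named from clusters by marker genes. The markers of each class were highest in that class for 10 of 10 neutrophil, 12 of 12 macrophage, 9 of 10 dendritic and 10 of 10 epithelial genes. Neutrophil-like cells had medians of 2641 to 3350.5 UMIs per cell in AOM PN and 3022.5 to 3494 in Apc ICI. Whether the 3′ tags of Apc and Trp53 lie in the deleted parts is not given in the sources used here, so they do not check the labels. For each class, the counts of a library's cells were added up, and levels below are CPM of those sums, scaled by TMM unless said otherwise. Values are listed for libraries 1, 2 and 3 of each model, each log2 change is AOM PN over Apc ICI, given with its standard error where one is printed, and "tested" means past the filter on low counts.

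In neutrophil-like cells the lysosomal genes lay lower in AOM PN tumours than in Apc ICI tumours. This held mainly for the membrane proteins, the hydrolases and their regulators, while most subunits of the proton pump differed less. Of the members, 44 were tested, and their calls are not given. Among all 9421 genes tested, edgeR's quasi-likelihood test called 16.6% lower and 14.8% higher at an adjusted p under 0.05. In 28 members the 3 AOM PN libraries all lay below the 3 Apc ICI libraries, and in 2 all above, against 26.2% and 21.7% of all genes. Nothing is read from these counts, because the same contrast helped to choose the members. The median log2 change of the 44 was -0.76, and that of all genes tested was -0.04. The remaining member, Glb1, had 15 UMIs in AOM PN and 25 in Apc ICI neutrophils and was not tested.

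**Figure D1:**
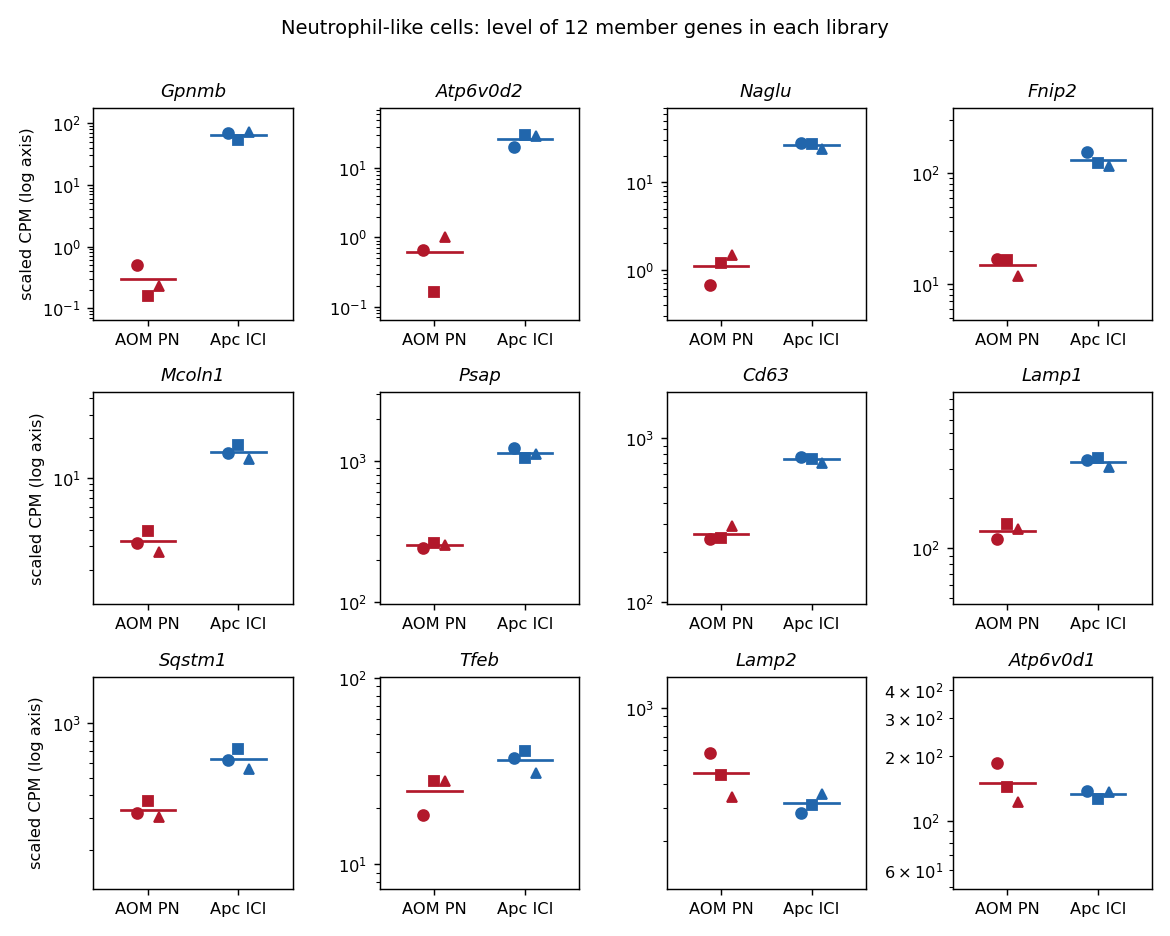
Levels of named members in neutrophil-like cells, as TMM-scaled CPM on a log axis, with 1 point per library, AOM PN left of Apc ICI. Gpnmb and Atp6v0d2 lie between 0.160 and 1.02 CPM in AOM PN and between 19.98 and 71.3 CPM in Apc ICI, while Lamp2 and Atp6v0d1 overlap between the models.

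Among the membrane proteins, Gpnmb, a transmembrane glycoprotein that macrophages raise under lysosomal stress, had 0.502, 0.160 and 0.227 CPM in AOM PN neutrophils, against 70.3, 53.2 and 71.3 CPM in Apc ICI neutrophils. These rest on 7 UMIs in all of AOM PN and 1562 in Apc ICI, and the log2 change was -7.88 ± 0.32. After thinning every cell to 1000 UMIs, 0.0403% of AOM PN 1 neutrophils (1 of 2482) had a Gpnmb UMI. None of 3551 and 3182 cells had one in AOM PN 2 and 3, which allows shares of up to 0.0845% and 0.0943%. In Apc ICI the thinned shares were 3.46%, 2.53% and 2.98%, with exact 95% intervals between 2.04% and 4.54% overall. T/NK-like cells, which should lack the gene, gave 0.0635%, 0% and 0.125% in AOM PN and 0.287%, 0% and 0% in Apc ICI, so the AOM PN neutrophil shares were at this background. Unthinned, T/NK-like cells had median depths of 4068 to 7207 UMIs in AOM PN and 5311 to 7085 in Apc ICI, deeper than the neutrophils. Unthinned, the neutrophil shares were 0.0775%, 0.0542% and 0.0302% in AOM PN and 4.61%, 3.89% and 4.196% in Apc ICI.

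The cholesterol exporter Npc1 had 11.04, 17.97 and 15.8 CPM in AOM PN, against 79.1, 73.9 and 73.4 CPM in Apc ICI, a log2 change of -2.32 ± 0.20. Mcoln1, the lysosomal calcium channel TRPML1, had 3.18, 3.93 and 2.72 CPM in AOM PN, against 15.2, 17.7 and 13.8 CPM in Apc ICI (log2 change -2.24 ± 0.22). For both genes the models were far apart and did not overlap. Cd63, a tetraspanin of late endosomes and of neutrophil azurophil granules, had 240, 244 and 290 CPM in AOM PN, against 763, 749 and 708 CPM in Apc ICI (-1.52 ± 0.16). Lamp1, which with Lamp2 makes up most of the lysosomal membrane's glycoprotein coat, had 114, 139 and 130 CPM in AOM PN, against 340, 353 and 311 CPM in Apc ICI (-1.39 ± 0.15). Cd68, a macrosialin widely used as a macrophage marker, had 140, 130 and 106 CPM in AOM PN, against 215, 237 and 231 CPM in Apc ICI (-0.86 ± 0.16). Lamp2 ran the other way, with 581, 444 and 340 CPM in AOM PN, against 281, 311 and 354 CPM in Apc ICI (0.53 ± 0.21). The Lamp2 values overlapped, so the paired coat proteins Lamp1 and Lamp2 did not follow each other.

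Among the lumenal proteins, Naglu, which removes N-acetylglucosamine from heparan sulfate, had 0.669, 1.20 and 1.47 CPM in AOM PN, against 28.2, 27.4 and 24.1 CPM in Apc ICI (log2 change -4.50 ± 0.25). Psap, the precursor of the saposins that help degrade sphingolipids, had 242, 264 and 254 CPM in AOM PN, against 1229, 1060 and 1132 CPM in Apc ICI (-2.17 ± 0.16). Neither gene's libraries overlapped between the models. After thinning, 15.4%, 19.5% and 17.98% of AOM PN neutrophils had a Psap UMI, against 47.5%, 38.8% and 36.6% of those in Apc ICI, while T/NK-like cells gave 8.77%, 12.1% and 12.1% in AOM PN and 16.1%, 22.8% and 10.3% in Apc ICI. The lipase Lipa (-2.19 ± 0.16), the cholesterol carrier Npc2 (-1.72), the hexosaminidase subunit Hexa (-1.54), the glucuronidase Gusb (-1.19), the acid glucosidase Gaa (-1.18) and the peptidase Tpp1 (-1.07) also had lower levels in AOM PN without overlap. A pair of enzymes, Man2b1 and Asah1, ran the other way, without overlap under TMM scaling. Without TMM their log2 changes were 0.46 and 0.32, and the libraries of both overlapped. Man2b1, the lysosomal mannosidase, had 117, 149 and 135 CPM in AOM PN, against 58.3, 61.9 and 93.3 CPM in Apc ICI (0.92 ± 0.21). Asah1, the acid ceramidase, had 48.4, 48.0 and 51.0 CPM in AOM PN, against 28.1, 24.8 and 32.3 CPM in Apc ICI (0.80 ± 0.16). The median log2 change was -1.18 over the 13 lumenal members that passed the filter on low counts, 9 of them negative, and -1.46 over the 8 membrane members, 7 of them negative.

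Subunits of the pump varied widely. Atp6v0d2, the alternative d subunit of V0 known from osteoclasts and macrophages, had 0.669, 0.160 and 1.02 CPM in AOM PN, against 19.98, 29.8 and 28.9 CPM in Apc ICI (log2 change -5.51 ± 0.42, from 15 and 684 UMIs). Its broadly expressed counterpart Atp6v0d1 had 185, 144 and 122 CPM in AOM PN, against 138, 126 and 136 CPM in Apc ICI (0.17 ± 0.18), with overlapping libraries. Thus 1 of the alternative d subunits stood apart and the other did not. In V1, Atp6v1c1 had 25.4, 27.0 and 30.8 CPM in AOM PN, against 139, 133 and 129 CPM in Apc ICI (-2.27 ± 0.15), and the catalytic subunit gene Atp6v1a (-1.18) and Atp6v1h (-1.14) also had lower levels in AOM PN without overlap. The other 5 V1 genes had log2 changes between -0.38 and 0.12, and the V0 genes other than Atp6v0d2 between -0.32 and 0.45. In 5 of the 8 V1, 2 of the 6 V0 and 1 of the 2 accessory genes all AOM PN libraries lay below all Apc ICI libraries, against 26.2% of all genes. Atp6v1f (-0.21) and Atp6v0e (-0.24) were among them. As plain shares without TMM, V0 and V1 genes together took 0.219% to 0.250% of UMIs in AOM PN and 0.352% to 0.391% in Apc ICI. Atp6ap1 and Atp6ap2, which help assemble the pump, had 0.08 and -0.45. The medians of the 6 V0 and 8 V1 genes were -0.12 and -0.30.

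Of the transcription factors known to drive lysosomal genes, Tfeb had 18.4, 28.0 and 28.0 CPM in AOM PN, against 37.2, 40.4 and 30.8 CPM in Apc ICI (log2 change -0.54 ± 0.20), without overlap. Tfe3 had 67.3, 49.2 and 45.9 CPM in AOM PN, against 48.9, 43.3 and 50.5 CPM in Apc ICI (0.19 ± 0.18). Mitf had 13.7, 17.3 and 22.1 CPM in AOM PN, against 18.03, 13.9 and 14.7 CPM in Apc ICI (0.20 ± 0.21). Transcript levels of Tfe3 and Mitf overlapped between the models, and they do not report where the proteins are in the cell. The genes around them differed more. Fnip2, a partner of folliculin in the nutrient-sensing switch that controls TFE3 and TFEB, had 16.9, 16.4 and 11.9 CPM in AOM PN, against 155, 123.3 and 116 CPM in Apc ICI (-3.13 ± 0.20). Tecpr1, which acts in autophagosome maturation, had 8.20, 8.82 and 9.07 CPM in AOM PN, against 50.9, 56.8 and 45.1 CPM in Apc ICI (-2.55 ± 0.17). Sqstm1, the autophagy receptor p62, had 317, 371 and 303 CPM in AOM PN, against 629, 722 and 554 CPM in Apc ICI (-0.94 ± 0.17), and folliculin itself, Flcn, had a log2 change of -1.08.

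**Figure D2:**
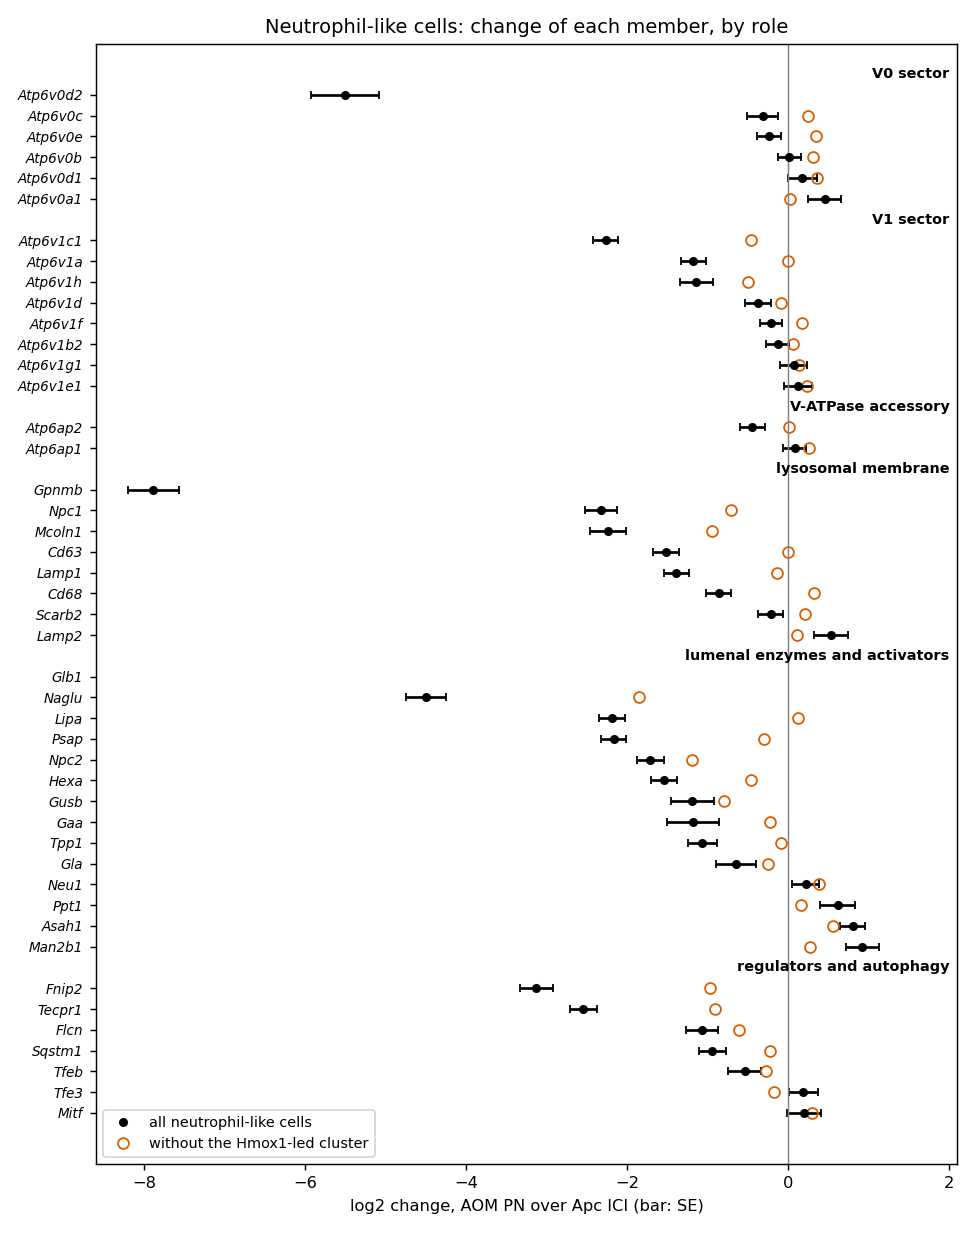
Log2 change of each tested member in neutrophil-like cells, AOM PN over Apc ICI, ordered by role, with bars of 1 standard error. The membrane, lumenal and regulator genes spread to below -2, while most V-ATPase genes lie between -0.5 and 0.5.

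Summed over all 45 members, the level was 5797, 5623 and 5332 CPM in AOM PN neutrophils, against 8537, 8673 and 8420 CPM in Apc ICI neutrophils, a ratio of 0.654. As a plain share of UMIs without TMM the members took 0.426%, 0.504% and 0.488% in AOM PN and 1.11%, 1.01% and 0.924% in Apc ICI, a wider gap. TMM factors were 0.735 to 0.915 in AOM PN and 1.10 to 1.30 in Apc ICI, and without them the median of all genes tested moved by -0.48. Relative to that median the members' median was -0.72 with TMM and -0.73 without it. The sign of 9 of 44 members turned negative without TMM, namely Atp6ap1, Atp6v0a1, Atp6v0b, Atp6v0d1, Atp6v1e1, Atp6v1g1, Mitf, Neu1 and Tfe3. The granule genes S100a8 and S100a9 together took 17.7%, 11.1% and 12.6% of neutrophil UMIs in AOM PN and 6.96%, 6.07% and 12.6% in Apc ICI, and their part in these shares was not tested.

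Transcripts of other cell types were also present in the neutrophil sums. The summed level of 8 mast cell markers was 340 to 3233 CPM in AOM PN and 23.2 to 93.3 CPM in Apc ICI, and all 8 were called higher. Mast-like cells held Cd63 at 3022 to 6329 CPM (without TMM) and Gpnmb at 0. Macrophage markers summed to 262 to 421 CPM in AOM PN and 382 to 621 CPM in Apc ICI, with 3 higher and 1 lower of 11 tested. Leaving out neutrophil-like cells with any macrophage-marker UMI, which removed 25.0% to 35.3% of cells in AOM PN and 22.8% to 34.0% in Apc ICI, gave a median log2 change of -0.85 over the members. Plasma cell markers summed to 286 to 439 CPM in AOM PN and 158 to 278 CPM in Apc ICI, and their part was not tested.

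The neutrophil-like cells were then divided into clusters found without any of the lysosomal genes listed here. In both models 1 cluster, small in AOM PN and large in Apc ICI, had the highest share of member UMIs. That cluster, led by Cstb, Hmox1 and Ftl1, held 1.36%, 1.47% and 0.94% of the class in AOM PN and 41.7%, 34.3% and 30.01% in Apc ICI, or 120 and 2388 cells. Cstb encodes a cathepsin inhibitor, and the lysosomal protease gene Ctsd, no member, was also among its leading genes. The members took 1.21%, 1.06% and 1.26% of this cluster's UMIs in AOM PN and 1.78%, 1.75% and 1.95% in Apc ICI (plain shares). A cluster of low depth (median 651.5 UMIs) that Retnlg and Slc7a11 led had 0.44% to 0.50% in AOM PN and 0.77% to 0.88% in Apc ICI. In the 3 other clusters, led by Retnlg, by G0s2 and Il23a, and by Slfn4 and Ifit3, they took 0.41% to 0.53% in AOM PN and 0.44% to 0.67% in Apc ICI. The clusters were built from genes that differ between the models, so their sizes are descriptions.

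**Figure D3:**
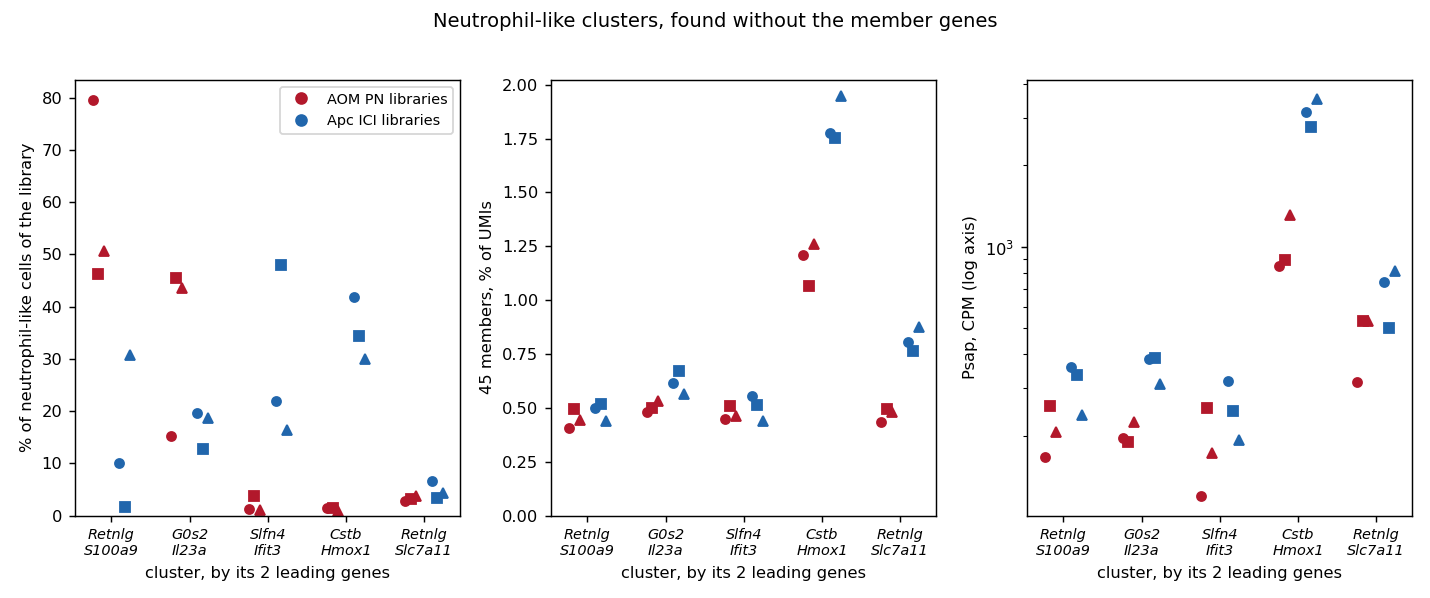
Neutrophil-like clusters found without the listed genes, with the share of the class in each library and the members' plain share of UMIs in each cluster, AOM PN left of Apc ICI. The Hmox1-led cluster holds 0.94% to 1.47% of AOM PN and 30.01% to 41.7% of Apc ICI neutrophils and has the highest share of lysosomal UMIs in both models.

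Without the Hmox1-led cluster, a choice made after the clusters had been seen, the summed members had a log2 ratio of 0.04. The median log2 change of the 42 members then tested was -0.00, against -0.03 for all genes. Of all 8739 genes, 2.29% were called in either direction, against 31.4% of 9421 in the whole class. Most calls over all genes were thus lost as well. Npc2 had 62.8, 54.5 and 74.9 CPM in AOM PN, against 137, 192 and 110 CPM in Apc ICI (log2 change -1.20 ± 0.23), without overlap. Cd63 had a log2 change of -0.00, Lamp1 of -0.14, Psap of -0.30 and Sqstm1 of -0.22, and Cd68 turned to 0.32. Naglu (-1.86), Fnip2 (-0.97), Mcoln1 (-0.95), Tecpr1 (-0.91) and Npc1 (-0.72) had changes of the same sign as in the whole class. Gpnmb and Atp6v0d2 fell under the filter on low counts.

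Inside the Hmox1-led cluster the libraries of the models stood apart in several members. These values are plain CPM, which over the whole class moved the median gene by -0.48, and rest on few AOM PN cells. Gpnmb had 0, 5.70 and 0 CPM in AOM PN, against 203, 156 and 256 CPM in Apc ICI. Psap had 850, 895 and 1314 CPM in AOM PN, against 3143, 2775 and 3516 CPM in Apc ICI. Naglu had 12.7, 22.8 and 11.8 CPM in AOM PN, against 77.4, 76.9 and 83.5 CPM in Apc ICI. For these 3 genes, and for Cd63 with 749, 747 and 1042 CPM in AOM PN, against 1825, 1836 and 2184 CPM in Apc ICI, the libraries did not overlap. Atp6v0d2 had 0, 0 and 94.7 CPM in AOM PN, against 56.1, 87.3 and 103 CPM in Apc ICI, and its libraries overlapped. Sqstm1 had 1383, 1419 and 852 CPM in AOM PN, against 1312, 1501 and 1382 CPM in Apc ICI, and overlapped too.

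In monocyte/macrophage-like cells, which engulf and digest dying cells, the members were nearly level in sum, with 5 single genes lower in AOM PN. The members took 0.829%, 0.854% and 0.829% of UMIs in AOM PN and 1.04%, 1.12% and 0.979% in Apc ICI, and with TMM scaling the log2 ratio of the sums was -0.13. All 45 were tested, and 5 were called lower and 0 higher, against 2.27% of 11078 genes called lower and 1.65% called higher. In 17 members all AOM PN libraries lay below all Apc ICI libraries and in 2 above, against 15.3% and 13.6% of all genes. The members' median was -0.17 and that of all genes -0.02.

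The 5 genes called lower in macrophages were a pump subunit, membrane proteins and enzymes, whose neutrophil values stand above. Atp6v0d2 had 0.828, 1.66 and 1.78 CPM in AOM PN, against 12.1, 29.1 and 4.86 CPM in Apc ICI, a log2 change of -3.45 ± 0.55 (edgeR adjusted p = 0.0165). Cd63 had 272, 167 and 256 CPM in AOM PN, against 457, 680 and 538 CPM in Apc ICI (-1.27 ± 0.21, edgeR adjusted p = 0.0187). Naglu had 7.75, 6.32 and 8.91 CPM in AOM PN, against 18.6, 17.7 and 15.3 CPM in Apc ICI (-1.18 ± 0.18, edgeR adjusted p = 0.0136). Gusb had 99.5, 92.3 and 115 CPM in AOM PN, against 148, 179 and 144 CPM in Apc ICI (-0.62 ± 0.13, edgeR adjusted p = 0.042). Gpnmb had 8.43, 7.37 and 3.80 CPM in AOM PN, against 58.8, 89.2 and 7.64 CPM in Apc ICI (-3.05 ± 0.66, edgeR adjusted p = 0.041). Apc ICI 3 had a Gpnmb level below AOM PN 1, so this gene's libraries overlapped. Psap, with 1488, 1652 and 1573 CPM in AOM PN, against 2115, 2252 and 1837 CPM in Apc ICI, did not pass (-0.40, edgeR adjusted p = 0.103), nor did Tfeb (-0.51, edgeR adjusted p = 0.078). Lamp1 had 763, 682 and 744 CPM in AOM PN, against 640, 708 and 628 CPM in Apc ICI, a log2 change of 0.15 that turned negative without TMM, as did those of 14 other members.

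Of the 7 regulators, 0 were called in macrophages, and in 3 the AOM PN libraries lay below the Apc ICI libraries. Tecpr1 had 6.998, 8.04 and 6.69 CPM in AOM PN, against 10.6, 15.3 and 8.33 CPM in Apc ICI (log2 change -0.69, edgeR adjusted p = 0.113), without overlap. Tfe3 had 48.5, 48.2 and 42.6 CPM in AOM PN, against 56.5, 50.9 and 55.9 CPM in Apc ICI (log2 change -0.23, edgeR adjusted p = 0.277), without overlap. Mitf had 25.7, 28.0 and 36.3 CPM in AOM PN, against 28.6, 29.1 and 23.6 CPM in Apc ICI (0.14, edgeR adjusted p = 0.668). Sqstm1 (-0.02, edgeR adjusted p = 0.96), Lamp2 (0.07, edgeR adjusted p = 0.758) and Atp6v0d1 (0.01, edgeR adjusted p = 0.973) overlapped between the models, as Mitf did. The small positive values of Lamp2, Mitf and Atp6v0d1 turned negative without TMM. Cd68 had 337, 339 and 330 CPM in AOM PN, against 360, 398 and 354 CPM in Apc ICI (-0.15, edgeR adjusted p = 0.446), without overlap and without a call.

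Depth and makeup of the macrophages differed between libraries. Median UMIs per cell were 6881, 9607 and 8663.5 in AOM PN and 7161, 2642 and 2517.5 in Apc ICI. In clusters found without the listed genes, a shallow cluster led by Apoe and C1qa, with a median of 1343 UMIs, held 12.3% of the class in AOM PN and 47.4% in Apc ICI. Clusters led by Plac8 and Chil3 and by Ccl24 and Arg1 held 43.6% and 42.9% in AOM PN and 24.1% and 25.0% in Apc ICI. In plain CPM, Cd63 averaged 1383 in AOM PN and 1599 in Apc ICI within the shallow cluster. It averaged 56.4 in AOM PN and 67.2 in Apc ICI within the Plac8-led cluster, and 244 in AOM PN and 461 in Apc ICI within the Ccl24-led cluster. Without the shallow cluster, a choice made after the clusters had been seen, 2 members were called lower, Cd63 (-1.14, edgeR adjusted p = 0.0347) and Naglu (-0.97, edgeR adjusted p = 0.0474), where 1.68% of 10885 genes were called. Leaving out 1 library at a time gave 0 to 4 members lower, with 0 when Apc ICI 2 was left out. Of all genes, 47 to 293 were then called lower, with 47 when Apc ICI 2 was left out. Neutrophil markers summed to 9774 to 18297 CPM in AOM PN macrophages and 6997 to 7352 CPM in Apc ICI macrophages, and mast cell markers to 138 to 1365 CPM in AOM PN and 15.2 to 56.2 CPM in Apc ICI, and their part was not tested.

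In dendritic-like cells, which process antigen through the endolysosomal pathway, no member passed the test. Of 42 members tested, 0 were called by edgeR and 0 by DESeq2, and 1 had an unadjusted edgeR p under 0.05, as did 1082 of all 8597 genes. Of all genes, 0.326% were called higher and 0.0931% lower. Gpnmb, Atp6v0d2 and Mcoln1 were under the filter on low counts. The log2 ratio of the summed members was 0.02. Cd63 had 283, 188 and 218 CPM in AOM PN, against 284, 356 and 294 CPM in Apc ICI (-0.44, edgeR adjusted p = 0.321), just short of overlap. Naglu had 3.58, 4.44 and 5.58 CPM in AOM PN, against 8.77, 5.34 and 11.7 CPM in Apc ICI (-0.78, edgeR adjusted p = 0.417), with overlap. Psap had 985, 1018 and 810 CPM in AOM PN, against 920, 816 and 1116 CPM in Apc ICI (-0.02, edgeR adjusted p = 0.995), and Lamp1 had 245, 243 and 251 CPM in AOM PN, against 259, 242 and 189 CPM in Apc ICI (0.09, edgeR adjusted p = 0.832). Both overlapped, and Lamp1 turned to -0.01 without TMM. Cd68 had 151, 148 and 188 CPM in AOM PN, against 139, 110 and 141 CPM in Apc ICI (0.33, edgeR adjusted p = 0.407). Tfeb had 10.3, 8.67 and 9.55 CPM in AOM PN, against 13.5, 12.8 and 12.96 CPM in Apc ICI (-0.47, edgeR adjusted p = 0.419). Atp6v0c, Cd68 and Tpp1 were higher in all AOM PN libraries than in all Apc ICI libraries and Atp6v1b2, Cd63 and Tfeb lower, against 9.29% and 9.81% of all genes in these directions. The class rested on 255 to 619 cells per library in AOM PN and 66 to 136 in Apc ICI. A cluster led by Ccl22 and Ccr7 held 23.0% of it in AOM PN and 48.4% in Apc ICI, and mast cell markers summed to 191 to 2341 CPM in AOM PN and 80.4 to 98.2 CPM in Apc ICI, and the part of either was not tested.

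**Figure D4:**
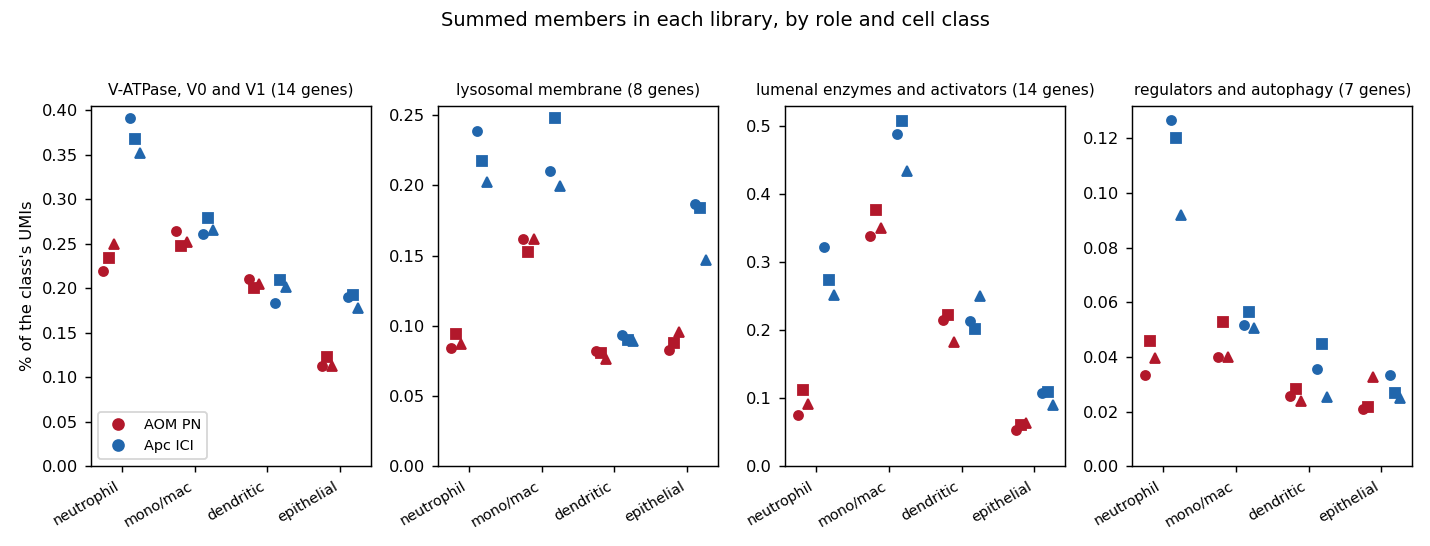
Summed members of 4 role groups in 4 cell classes, as plain shares of the class's UMIs per library without TMM, AOM PN left of Apc ICI. In neutrophil-like cells the V-ATPase, membrane, lumenal and regulator sums all lie lower in AOM PN. The V-ATPase share there is 0.219% to 0.250% in AOM PN and 0.352% to 0.391% in Apc ICI.

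In epithelial-like cells, the tumour cells and their neighbours, several pump genes were lower in AOM PN along with many enzymes. The members took 0.277%, 0.302% and 0.313% of UMIs in AOM PN and 0.537%, 0.533% and 0.455% in Apc ICI, and the log2 ratio of the scaled sums was -0.70. Of 43 members tested, 24 fell and 2 rose, against 20.1% of 11809 genes called lower and 21.3% called higher (41.3% in either direction). The members' median was -0.65 and that of all genes -0.01. By role, 1 of 5 V0 genes, 5 of 8 V1 genes, both accessory genes, 4 of 8 membrane genes, 10 of 14 lumenal genes and 2 of 6 regulators fell, and the 2 that rose were V0 genes. Mitf was not tested, and neither was Atp6v0d2, with 0 UMIs in AOM PN and 72 in Apc ICI.

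Lamp2 had 157, 198 and 196 CPM in AOM PN epithelium, against 700, 693 and 524 CPM in Apc ICI epithelium, a log2 change of -1.80 ± 0.18 (edgeR adjusted p = 5.6e-05). Lamp1 had a change of -0.27 (edgeR adjusted p = 0.164), so Lamp2 fell here where its libraries overlapped in neutrophils; the difference between the classes was not tested. Atp6ap1 had 23.6, 32.5 and 32.2 CPM in AOM PN, against 85.0, 80.6 and 71.8 CPM in Apc ICI (-1.43, edgeR adjusted p = 0.00012). Atp6v1d had 43.7, 41.5 and 48.7 CPM in AOM PN, against 113, 101 and 109 CPM in Apc ICI (-1.28, edgeR adjusted p = 7.9e-05). Atp6v1a had 20.1, 32.2 and 33.7 CPM in AOM PN, against 65.5, 71.8 and 67.8 CPM in Apc ICI (-1.26, edgeR adjusted p = 0.000557). Subunits of the V1 motor and the assembly factor thus fell without overlap between the models.

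Naglu had 4.46, 4.83 and 3.58 CPM in AOM PN epithelium, against 13.2, 11.99 and 10.98 CPM in Apc ICI (log2 change -1.45, edgeR adjusted p = 0.00134). Psap had 100, 97.5 and 97.4 CPM in AOM PN, against 215, 176 and 159 CPM in Apc ICI (-0.90, edgeR adjusted p = 0.00118). Cd63 had 368, 329 and 341 CPM in AOM PN, against 615, 660 and 532 CPM in Apc ICI (-0.80, edgeR adjusted p = 0.00231). These enzyme and membrane genes fell in the epithelium as well. Gpnmb had 1.34, 0.322 and 0 CPM in AOM PN, against 8.35, 28.4 and 6.55 CPM in Apc ICI (-4.62 ± 0.95, edgeR adjusted p = 0.00331). Cd68 had 4.46, 4.83 and 2.87 CPM in AOM PN, against 14.4, 11.2 and 8.09 CPM in Apc ICI (-1.41, edgeR adjusted p = 0.0063). Macrophage markers in the epithelial sums totalled 21.9 to 98.1 CPM in AOM PN and 38.5 to 69.7 CPM in Apc ICI, and their part in Gpnmb and Cd68 was not tested.

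Man2b1, whose neutrophil levels were higher in AOM PN, had 33.5, 29.6 and 32.96 CPM in AOM PN epithelium, against 75.3, 59.8 and 59.5 CPM in Apc ICI (log2 change -1.02, edgeR adjusted p = 0.000653). Glb1, the lysosomal beta-galactosidase that was too low to test in neutrophils, had 12.04, 16.4 and 15.8 CPM in AOM PN, against 36.5, 33.2 and 27.5 CPM in Apc ICI (-1.14, edgeR adjusted p = 0.00127). Both enzymes thus lay lower in AOM PN epithelium without overlap.

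The V0 genes that rose were Atp6v0a1, with 32.6, 25.4 and 40.8 CPM in AOM PN, against 20.3, 17.7 and 17.5 CPM in Apc ICI (log2 change 0.80 ± 0.20, edgeR adjusted p = 0.00902), and Atp6v0c. Atp6v0c, the proton-carrying ring subunit, had 13.8, 15.1 and 25.1 CPM in AOM PN, against 3.77, 4.15 and 2.70 CPM in Apc ICI (2.26 ± 0.30, edgeR adjusted p = 0.000275). Its count is uncertain, because near-identical pseudogene copies of Atp6v0c are annotated in the mouse genome. Of the regulators, Tfe3 (-0.63, edgeR adjusted p = 0.0134) and Tecpr1 (-0.52, edgeR adjusted p = 0.0389) fell, while Tfeb (0.35) and Sqstm1 (-0.04) did not pass.

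The epithelial sums differed in depth and in the kinds of cells they held. Median UMIs per cell were 1094 to 1617 in AOM PN and 2775.5 to 6454 in Apc ICI. After thinning to 1000 UMIs, the median log2 change of the 33 members tested was -0.80, against -0.02 for all genes tested. Sub-clusters led by Gm26917, by Jun and by Reg3b held 37.2%, 22.6% and 16.7% of AOM PN epithelium and 2.32%, 0.464% and 2.51% of Apc ICI epithelium. Those led by Mt4, by Cep112 and by Ptn held 1.26%, 1.31% and 0% in AOM PN and 20.3%, 18.4% and 19.03% in Apc ICI. Different sub-clusters thus made up most of the class in the 2 models. Neutrophil markers summed to 1171 to 1440 CPM in AOM PN and 373 to 539 CPM in Apc ICI, and mast cell markers to 290 to 2637 CPM in AOM PN and 22.6 to 99.4 CPM in Apc ICI. T/NK markers summed to 119 to 189 CPM in AOM PN and 13.5 to 17.2 CPM in Apc ICI, and their part was not tested.

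**Figure D5:**
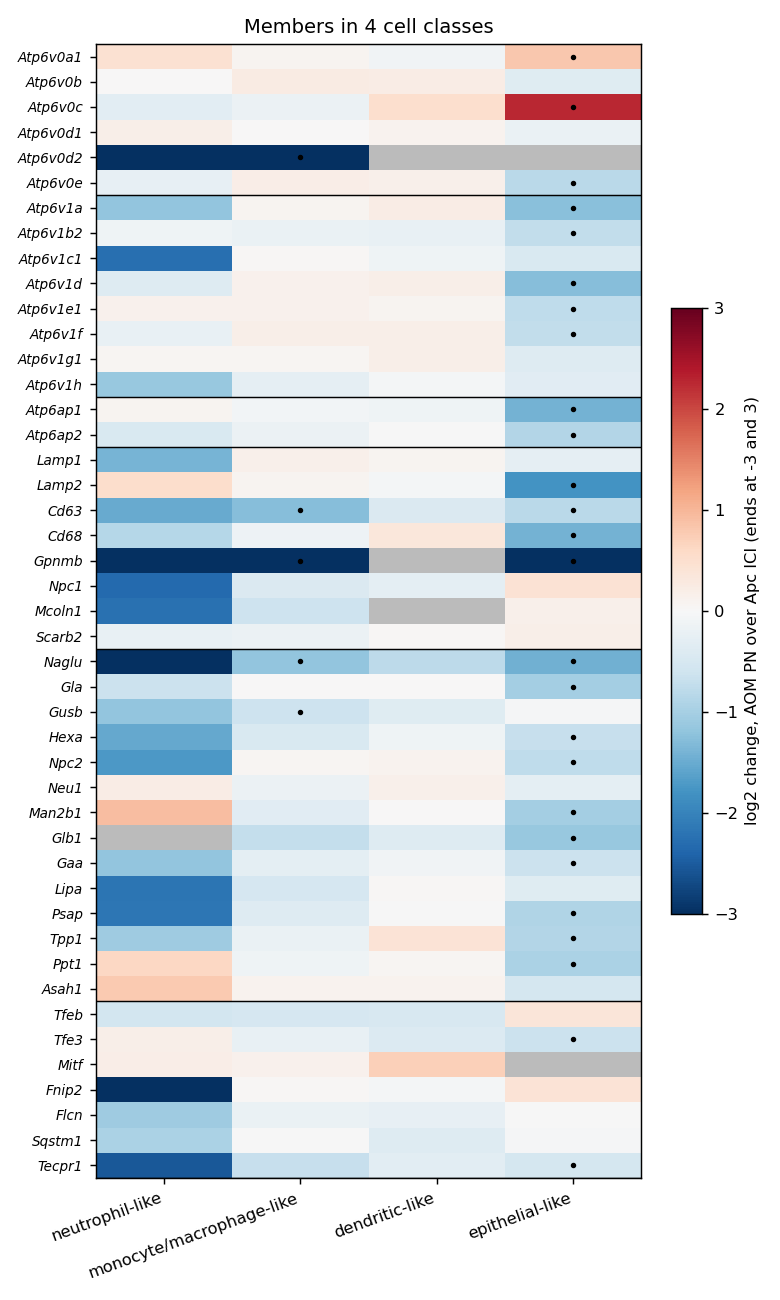
Log2 change of each member, AOM PN over Apc ICI, in 4 cell classes. Several members, among them Cd63, Naglu, Hexa and Gusb, lie below 0 in all 4 classes, and no dendritic-like value passed the test.

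A further 138 genes of the pathway that are no members were counted from 6 lists. In neutrophil-like cells 34 of 124 tested were called lower and 13 higher, with the background of 16.6% and 14.8% given above. The lists, like the members, were chosen with earlier results of these data known. Nothing is therefore read from these neutrophil counts, and the genes named were picked for large called changes. The lists ranged in median log2 change from -0.41 for 19 genes of the lysosomal mTORC1 platform and TFEB regulation to 0.14 for 11 other V-ATPase subunits and assembly factors. Called lower and higher were 2 and 1 of the 11 V-ATPase genes, 7 and 1 of 23 membrane proteins and transporters, 7 and 2 of 20 sorting and trafficking genes, 6 and 2 of 19 mTORC1 and TFEB genes, and 3 and 2 of 21 autophagy adaptor and ATG8 genes. Of the 30 other hydrolases, 9 were called lower and 5 higher, including Idua, the iduronidase, with 1.28 ± 0.465 CPM in AOM PN and 14.1 ± 0.984 CPM in Apc ICI (SD, n = 3 each; log2 change -3.37), and the hyaluronidase genes Hyal2 (-3.08) and Hyal1 (-2.64). Rragd, an mTORC1-recruiting GTPase gene and a known TFEB target, had 4.13 ± 1.70 CPM in AOM PN and 34.3 ± 6.18 CPM in Apc ICI (SD, n = 3 each; -3.12). The lysosomal chloride exchanger Clcn7 (-2.47), its partner Ostm1 (-1.54), the tethering subunit Vps39 (-2.34), the ATG8 gene Gabarapl1 (-2.14), the pump assembly factor Tmem199 (-2.15) and the a3 subunit Tcirg1 (-1.63) were lower. Atg9a (1.23) and Rogdi (0.85) were higher. Without the Hmox1-led cluster 1 of these genes was called lower and 0 higher, beside 153 and 47 of all 8739 genes.

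In macrophage-like cells 4 of 125 such genes were called lower and 0 higher, beside 2.27% and 1.65% of all genes, a share near the background. Among them were Idua (log2 change -1.42, edgeR adjusted p = 0.0163), Gga2 (-1.04, edgeR adjusted p = 0.0374) and Manba (-1.03, edgeR adjusted p = 0.0397). Lists other than those of hydrolases and of sorting had 0 calls in macrophages. In dendritic-like cells edgeR called 0 of 104 (13 at an unadjusted p under 0.05, beside 1082 of all 8597 genes), and DESeq2 called 2 lower and 1 higher, beside 129 of all 8597 genes. In epithelial-like cells 31 of 126 fell and 15 rose, beside 20.1% and 21.3% of all genes. The lower and higher calls were 4 and 2 of 13 V-ATPase genes, 8 and 5 of 30 hydrolases, 6 and 1 of 22 membrane proteins, 4 and 2 of 20 sorting genes, 2 and 2 of 19 mTORC1 and TFEB genes, and 7 and 3 of 22 autophagy genes, with the ATG8 gene Map1lc3a (-1.91) and the V0 subunit gene Atp6v0e2 (-2.02) among those that fell and the phosphatase gene Acp5 (2.20) and Rptor (1.06) among those that rose.

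Across the 4 classes, and without TMM, the members' median share of UMIs over 6 libraries was 0.71% in neutrophil-like, 0.92% in macrophage-like, 0.55% in dendritic-like and 0.38% in epithelial-like cells. In all of these but dendritic-like cells, the median lay between the separate ranges of the 2 models. Mast-like cells had 0.93%, T/NK-like cells 0.30% and B-like cells 0.27%. Among the 4 classes 23 members had their highest median level in neutrophil-like cells, 17 in macrophage-like, 3 in dendritic-like and 2 in epithelial-like cells. These medians also pool both models, so the highest class need not be the same in each. Gpnmb counted as highest in neutrophil-like cells, though in AOM PN its level was higher in macrophage-like cells. Over 47 sums of a class in a library, the genes whose log2(CPM + 1) followed Gpnmb most closely among 11567 were Rassf8 and Oas1g (Pearson r = 0.76 each), then Cstb, Gm13391 and 4930430E12Rik (r = 0.73 each). These sums share libraries and depth, so the values are descriptions.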

How the data were processed

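Droplet-based 3′ single-cell RNA libraries were made from 6 dissociated tumours after dead cells had been sorted out, per the labels' protocols. Raw UMI counts for each gene in each barcode were deposited by the authors, from Cell Ranger 6.1.2 on mm10 per the submitters' processing notes; the annotation was not given in the sources used here. Members and lists were chosen with earlier results of these data known.

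Filters required 200 genes and allowed 20% mitochondrial UMIs per barcode, and the barcodes most like simulated doublets were removed at 0.8% per 1000 barcodes. Counts without haemoglobin, scaled to 10000 per cell, gave 2000 variable genes, 30 principal components and Leiden clusters (leidenalg 0.10.2, resolution 1, 20 neighbours), with no batch correction. A cluster was named after a class from at least 3 detected markers, so class names were rebuilt here and may differ from the study's. Part of the naming rules was chosen with the clusters in view. Counts were summed per library and class, for sums of at least 20 cells, and tested with edgeR 4.0.16 (quasi-likelihood test, TMM, filterByExpr, Benjamini-Hochberg over all genes tested, threshold 0.05) in R 4.3.3, a step tested on simulated data. Intervals and limits for counts of 0 (3 counts) cover counting error only. Sums over members got no test. Named genes were 12 fixed members, the 8 members with the largest change in each class (outside neutrophil-like cells, among those called), the 3 genes of each list with the largest called change in each class and the 5 genes most like Gpnmb; other members were named by their call or role, after their values were seen. Alternatives were no TMM, no filter, DESeq2 1.42.0, a replicate block, each library left out, doublets kept, clusters without the listed genes, thinning to 1000 UMIs, and neutrophil-like cells without macrophage UMIs. Leaving out the Hmox1-led neutrophil cluster or the shallow macrophage cluster was chosen after seeing the data. The values of 1 called gene of the lists are not reported here.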

Additional observations from a re-analysis of the deposited data

Results flagged for a closer look

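With TMM scaling, the libraries of the models did not overlap in 5 members, in opposite directions in different cell classes. None of these differences between classes was tested, and each value is a log2 change of AOM PN over Apc ICI. Man2b1 had 0.92 in neutrophil-like cells, against -0.34 in macrophage-like and -1.02 in epithelial-like cells. Its neutrophil value was 0.46 without TMM, with overlapping libraries. Cd68 had 0.33 in dendritic-like cells, against -0.86 in neutrophil-like, -0.15 in macrophage-like and -1.41 in epithelial-like cells. Tpp1 had 0.41 in dendritic-like cells, against -1.07 in neutrophil-like and -0.88 in epithelial-like cells. Atp6v0e had 0.21 in macrophage-like cells, against -0.24 in neutrophil-like and -0.82 in epithelial-like cells, and its macrophage value was only 0.01 without TMM. Atp6v1f had 0.18 in macrophage-like cells, against -0.21 in neutrophil-like and -0.74 in epithelial-like cells, and its macrophage value turned to -0.01 without TMM.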

How the results depend on the processing

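In neutrophil-like cells, the members' median log2 change of -0.76 (all genes -0.04) became -0.00 (-0.03) without the Hmox1-led cluster. It became -1.25 (all genes -0.52) without TMM, -0.70 (-0.08) without a filter, -0.78 (-0.02) with doublets kept and -0.81 (-0.03) thinned. With a library left out it was -0.91 to -0.68 (all genes -0.07 to -0.03). Of the other pathway genes, 34 lower became 55 without TMM and 1 without that cluster (27 to 35 with a library left out). The 13 higher became 3 without TMM, 8 with doublets kept, 7 after thinning and 0 without that cluster. With a library left out they were 4 to 13 (4 without Apc ICI 2, 5 without Apc ICI 1). Of all genes tested, 1562 lower and 1393 higher became 3281 and 327 without TMM and 153 and 47 without that cluster. They became 1400 and 1186 with doublets kept, 902 and 656 thinned, and 851 to 1489 and 548 to 1315 with a library left out. The summed log2 ratio of -0.61 became -1.10 without TMM, -0.56 with DESeq2, -0.74 with doublets kept, -0.68 thinned and -0.70 without macrophage UMIs. With a library left out it was -0.64 to -0.58. Without that cluster it was 0.043, so the sums were nearly level, and Cd68 changed sign, to 0.32 ± 0.18.

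In macrophage-like cells, 5 members lower became 10 without TMM, 3 with a replicate block, 3 thinned and 2 without the shallow cluster. With a library left out they were 0 to 4. The members' median, -0.17 (all genes -0.02), became -0.37 (-0.22) without TMM. With a library left out it was -0.20 to -0.09 (-0.03 to -0.01). Of all genes tested, 252 lower became 790 without TMM, 83 with the block, 116 thinned and 100 without the shallow cluster. They became 608 without a filter, 387 with DESeq2 and 47 to 293 with a library left out, while 183 higher became 27 to 622 over all settings. The 4 pathway genes lower became 14 without TMM, 8 without a filter, 0 with the block, 7 with DESeq2, 2 thinned, 1 without the shallow cluster and 0 to 7 with a library left out; 0 higher became up to 1. The sum, -0.13, became -0.32 without TMM, -0.20 with doublets and -0.25 thinned (-0.16 to -0.09 with a library left out). In dendritic-like cells, 0 members lower became 1 without a filter. For pathway genes, 0 higher became 1 without a filter, with DESeq2, with doublets or thinned. For those lower, 0 became 2 without a filter, with DESeq2 or with doublets (0 to 1 with a library left out for either direction). Of all genes there, 8 lower and 28 higher became 134 and 267 without a filter, 47 and 82 with DESeq2 and 72 and 87 with doublets. Thinned, they were 16 and 18, and with a library left out 0 to 15 and 0 to 41. The sum, 0.02, became -0.078 without TMM and -0.11 thinned. In epithelial-like cells, pathway genes went to 7 higher and 9 lower after thinning, beside 15 and 31 (11 to 13 and 27 to 33 with a library left out). Of all genes there, 2513 higher and 2370 lower became 1192 and 1028 thinned. With a library left out they were 2076 to 2421 and 1747 to 2337. The epithelial sum of -0.70 became -0.47 with doublets and -0.79 thinned. The cause of these shifts was not tested.

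Same-numbered libraries did not deviate together and share only a number. A replicate block gave 0 higher and 3 lower members in macrophage-like cells, beside 64 and 83 of all genes. It gave 0 and 0 in dendritic-like cells, beside 0 and 0, and 2 and 22 in epithelial-like cells, beside 2302 and 2078. In neutrophil-like cells the members' median was -0.78 with the block, against -0.05 for all genes. Over single named genes with a library left out, 90 epithelial-like and 60 dendritic-like values kept their call or lack of one. In macrophage-like cells 70 did so and 14 lost a call. Only the 5 genes called there could lose one, and 0 to 4 members were called lower with a library left out. A value without a call could change sign and still count as kept. Depth limits Glb1, Gpnmb and Atp6v0d2 in AOM PN.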
